A study of Caenorhabditis elegans with 3 samples.

Results

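Transcripts of 10 genes of the Wnt and beta-catenin pathway were measured in the dissected germline of wild-type (N2) Caenorhabditis elegans, the standard laboratory strain. The members were taken by gene name: the beta-catenins bar-1, sys-1, wrm-1 and hmp-2, the TCF factor gene pop-1, the kinase gene lit-1, the destruction complex genes apr-1, pry-1 and gsk-3, and the Frizzled receptor gene mom-5. They are 10 of the 46739 genes in the deposited table, of which 20362 are protein coding. A total of 9 members were found by the name in the table. The gene identifier of apr-1 (WBGene00000156) carries the name "Apr-01" there, a calendar date, and was matched by that identifier; 11 gene names in the table have the form of a date. The study asked which transcription factors the germline expresses, and it has 1 group of 3 libraries, all from N2 germlines with no treatment or age named in the labels. No comparison between conditions exists, so the values below are levels within these libraries. The labels do not say whether the 3 numbered samples came from separate animals or cultures, and the spread between them may be technical.

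In the Wnt pathway a secreted ligand binds a Frizzled receptor, and the signal changes what beta-catenin does. In its absence a complex of Axin, APC, GSK3 and casein kinase marks beta-catenin for destruction, and in its presence beta-catenin accumulates and acts with the DNA-binding factor TCF. C. elegans divides these tasks among several beta-catenins. BAR-1 works in the classical pathway, SYS-1 is the coactivator of the TCF protein POP-1, WRM-1 works with the kinase LIT-1 to move POP-1 out of the nucleus, and HMP-2 joins cadherin to the actin cytoskeleton at cell junctions. In the somatic gonad SYS-1 and POP-1 are known for making the niche of the germline, and maternal products of the pathway specify endoderm in the early embryo.

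The 3 libraries held 14523486, 15566299 and 16656171 counts in replicates 1, 2 and 3, so that a count of 0 allows up to 0.207, 0.193 and 0.18 CPM (count scaled to a library total of 1000000, 3 counts taken as the limit, counting error only). Library pairs correlated at 0.964 to 0.987 (Pearson r of log2(CPM + 1) across the protein-coding genes, which are not independent replicates). All 10 germline marker genes, among them glh-1, rme-2 and oma-1, had at least 1 CPM in every library, with a summed level of 9345 to 11845 CPM. Markers of other cells were also present. The sperm list was detected for 7 of 10 genes and summed to 3620, 397.2 and 1097 CPM in replicates 1, 2 and 3. The somatic gonad list was detected for 8 of 9 genes and summed to 372.1, 433.1 and 269.9 CPM. The intestine, muscle, neuron and hypodermis lists had 7, 8, 6 and 3 of 10 genes detected, beside 40.2% of all protein-coding genes. The 30% of the hypodermis list lay below that share. In the same order, the sums of these lists were 379.7 to 1629, 432.8 to 696.5, 55.9 to 56.9 and 55.9 to 690.9 CPM. Most of the neuron sum came from snb-1, at 33.6, 36.8 and 35.5 CPM in replicates 1, 2 and 3. Other neuron genes differed more, as egl-21 at 3.17, 0.385 and 2.22 CPM, or little, as unc-119 at 4.34, 4.95 and 4.08 CPM. The intestine sum was highest in replicate 2, and the muscle and hypodermis sums in replicate 1. The intestinal factor gene elt-2 and the muscle factor gene hlh-1 had no count in replicate 2 and at most 0.18 CPM elsewhere. Other genes of the same lists were detected in every library, with the intestinal factor gene elt-7 at 2.75, 1.74 and 1.38 CPM and the intestinal actin gene act-5 at 12.3, 6.75 and 10.8 CPM in replicates 1, 2 and 3. The muscle genes lev-11, unc-54 and unc-15 averaged 187.4, 142 and 129.4 CPM. In such bulk samples, fewer cells of a type and less RNA per cell cannot be told apart.

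Every member was detected, which here means at least 1 CPM in each of the 3 libraries. The same rule was met by 40.2% of the protein-coding genes. At least 10 CPM in every library was reached by 6 of the 10 members and by 26.6% of the protein-coding genes. The median level of the 10 members was 4.62 on the log2(CPM + 1) scale (4.72, 4.55 and 4.57 in replicates 1, 2 and 3), against 0.66 for all protein-coding genes and 5.01 for the detected ones. The members thus split into 6 genes with 19.6 CPM or more in every library (hmp-2, apr-1, wrm-1, lit-1, sys-1 and gsk-3) and 4 genes in the low range (mom-5, pry-1, pop-1 and bar-1), which did not exceed 7.37 CPM in any library.

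To set genes beside each other, counts were divided by the length of each gene's exons and scaled to the same sum in every library (transcripts per 1000000, TPM). The members followed the order hmp-2, apr-1, wrm-1, lit-1, gsk-3, sys-1, mom-5, pry-1, pop-1 and bar-1, with mean TPM from 73.8 to 1.17. Among the 20116 protein-coding genes with an annotated exon length, hmp-2 ranked 1559 and bar-1 8909. Of the 45 pairs of members, 40 had TPM values that did not overlap between the 2 genes in the 3 libraries. For all pairs of detected protein-coding genes the share was 84.0%, so the members were about as far apart as any detected genes. Among the 9 pairs of neighbours in the order, 4 overlapped: gsk-3 with sys-1, mom-5 with pry-1, pry-1 with pop-1, and pop-1 with bar-1. Those neighbours did not differ beyond their spread. The fifth overlapping pair was pry-1 and bar-1. No test was run on these pairs, since an exact sign-flip test over 3 libraries cannot go below 0.25.

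**Figure D1:**
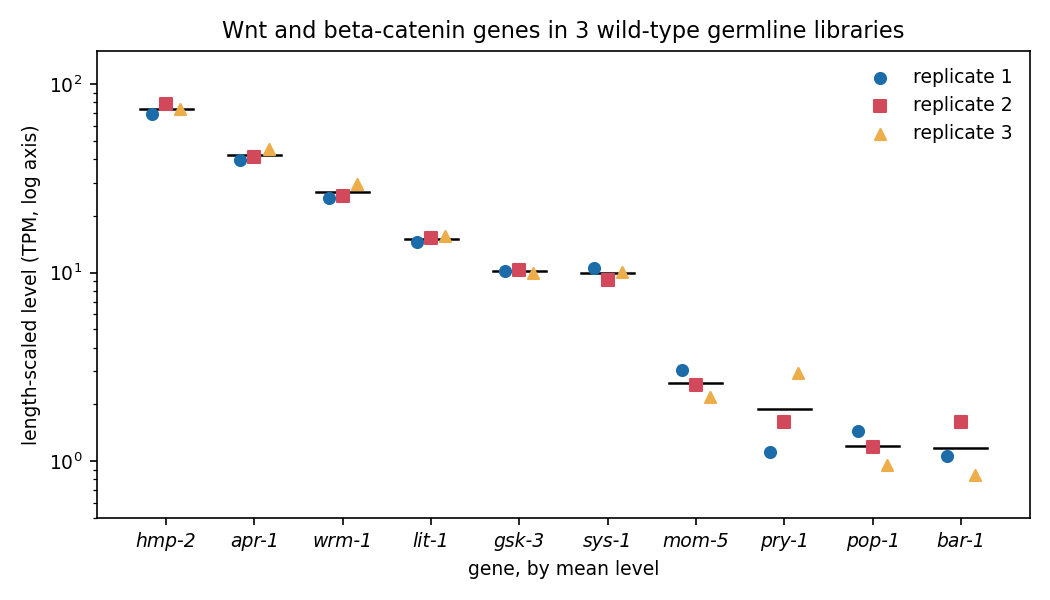
Length-scaled level (TPM, log axis) of the 10 genes in each of the 3 libraries, ordered by mean, with points for libraries and a black line for the mean. The genes from hmp-2 to sys-1 lie at or above 9.17 TPM in every library, and the 4 genes on the right lie between 0.842 and 3.05 TPM.

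The most abundant beta-catenin was hmp-2 (WBGene00001979, chromosome I, 14738882 to 14742671 on WBcel235), which links the cadherin HMR-1 to alpha-catenin at adherens junctions. It had 153.3, 163.2 and 151.7 CPM in replicates 1, 2 and 3, and the libraries differed by a factor of 1.08. With the TMM factors of edgeR and the size factors of DESeq2, other ways to scale libraries, that factor for hmp-2 was 1.19 and 1.16. Its mean was 73.8 ± 4.12 TPM (SD, n = 3). In wrm-1 (WBGene00006943, chromosome III, 5722850 to 5727115), the partner of LIT-1, the values were 67.8, 65.9 and 74.3 CPM, a factor of 1.13 (1.03 and 1.04 with those scalings). In sys-1 (WBGene00006379, chromosome I, 9980063 to 9984794), the coactivator of POP-1, they were 29.7, 24.5 and 26.4 CPM, with replicate 2 the lowest. The lowest was bar-1 (WBGene00000238, chromosome X, 7166005 to 7170625), with 2.69, 3.85 and 1.98 CPM from 39, 60 and 33 reads. Replicate 2 was highest for bar-1, and the 95% exact Poisson intervals of replicates 2 and 3 (2.94 to 4.96 and 1.36 to 2.78 CPM, counting error only) did not overlap.

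Of the summed TPM of the 4 beta-catenin genes, hmp-2 made up 66.2 ± 1.84%, wrm-1 23.9 ± 1.71%, sys-1 8.95 ± 0.976% and bar-1 1.05 ± 0.337% (SD, n = 3). The order of the 4 genes was the same in every library and their TPM values did not overlap. In TPM, wrm-1 exceeded sys-1 by a factor of 2.36, 2.78 and 2.91 in replicates 1, 2 and 3. The beta-catenin of cell junctions thus had the highest transcript level, and the 2 beta-catenins that act on POP-1 in asymmetric divisions came next.

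**Figure D2:**
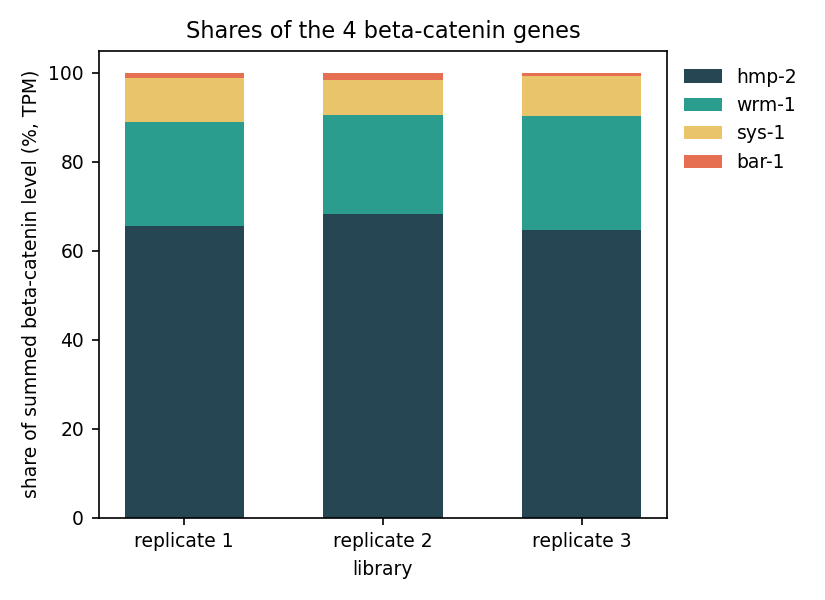
Share of each beta-catenin gene in the summed length-scaled level (TPM) of all 4, in percent, stacked for each library. In every library hmp-2 holds 64.7% to 68.2%, and bar-1 holds at most 1.41%.

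In contrast to its coactivator, the TCF gene pop-1 (WBGene00004077, chromosome I, 2822243 to 2830311) had few counts. It had 52, 44 and 37 reads in replicates 1, 2 and 3, or 3.58, 2.83 and 2.22 CPM. The 95% exact Poisson intervals of the highest and the lowest library (2.67 to 4.7 and 1.56 to 3.06 CPM) overlapped, and no test of the difference between libraries was made. The coefficient of variation of the CPM between libraries was 23.7%, beside 15% from counting alone. In TPM, sys-1 exceeded pop-1 by a factor of 7.37, 7.68 and 10.5, a mean difference of 3.07 ± 0.28 on the log2 scale (SD, n = 3). The level of wrm-1 exceeded that of pop-1 by a factor of 17.4, 21.4 and 30.7. These factors depend on the length used, since 1314 of the 2560 exon bases of pop-1 are coding. Per coding length the mean factors were 5.1 for sys-1 over pop-1 and 13.5 for wrm-1 over pop-1, in place of 8.42 and 22.5, and both beta-catenins were still higher in 3 of 3 libraries.

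Genes whose products act with POP-1 or against it at its target genes were far above it. The histone deacetylase gene hda-1 had 73.7 TPM, the Groucho corepressor gene unc-37 40.2 TPM, the Groucho-related gene lsy-22 18.9 TPM and the p300 acetyltransferase gene cbp-1 15.9 TPM. These proteins also serve many other transcription factors. Of 7 genes listed here as targets of POP-1 or of Wnt signalling elsewhere in the animal, 2 were detected. This was 28.6%, beside 40.2% of all protein-coding genes. The detected genes were the Hox gene lin-39 at 1.29 ± 0.343 CPM and mig-13 at 2.23 ± 0.393 CPM (SD, n = 3). In its lowest library lin-39 had 1.03 CPM, close to the minimum of 1 CPM. The endodermal GATA gene end-3 had 0.275, 0.899 and 1.56 CPM in replicates 1, 2 and 3, with end-1, the homeobox gene psa-3 and the Hox gene mab-5 below 0.14 CPM in every library. The homeobox gene ceh-22, which acts in the formation of distal tip cells, had no count, which allows up to the limits given above.

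The kinase gene lit-1 (WBGene00003048, chromosome III, 13701991 to 13724404) encodes the Nemo-like kinase that phosphorylates POP-1 together with WRM-1. It had 48.1, 48.3 and 48.5 CPM in replicates 1, 2 and 3, and the libraries differed by a factor of 1.01. With the TMM factors of edgeR and the size factors of DESeq2, which scale libraries on the bulk of their genes, that factor was 1.1 and 1.08, so the closeness of the values belongs to CPM on library totals. Its mean was 15.1 ± 0.597 TPM. In TPM, wrm-1 exceeded lit-1 by a factor of 1.73, 1.67 and 1.88, with a mean of 1.76 per exon length and 1.22 per coding length. The gene has 7 annotated transcripts, which counts per gene do not tell apart. Upstream of lit-1, the kinase gene mom-4, of the TAK1 type, had 32.9 TPM and its activator gene tap-1 6.45 TPM. The 14-3-3 genes par-5 and ftt-2, whose products carry phosphorylated POP-1 out of the nucleus among many other tasks, had 725 and 82.9 TPM. They are related in sequence, and how reads that match both were counted is not known here.

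The destruction complex was uneven. The APC gene apr-1 (WBGene00000156, chromosome I, 8050037 to 8055475) had 150.5, 148.5 and 160 CPM in replicates 1, 2 and 3, and 41.9 ± 2.84 TPM on average (SD, n = 3). The GSK3 kinase gene gsk-3 (WBGene00001746, chromosome I, 12819216 to 12825602), which in the embryo also prepares the oocyte protein OMA-1 for degradation, had 21.6, 20.6 and 19.6 CPM and 10.2 ± 0.17 TPM. Its level per coding length was 17.3 TPM, since 1086 of its 2172 exon bases are coding. The Axin gene pry-1 (WBGene00004202, chromosome I, 14172828 to 14179360), the scaffold of the complex, had 2.13, 2.96 and 5.22 CPM from 31, 46 and 87 reads. In TPM, apr-1 exceeded pry-1 by a factor of 35.6, 25.4 and 15.5.

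Among the other genes of that complex, the casein kinase gene kin-19 had 99.4 TPM and lin-23, the F-box gene that targets phosphorylated beta-catenin, had 34.8 TPM. The second Axin gene, axl-1, was not detected, at 0.551, 0.257 and 0.42 CPM in replicates 1, 2 and 3. Both Axin genes were thus low while kin-19, apr-1 and lin-23 had 34.8 TPM or more. The transmembrane gene plr-1, whose product removes Frizzled from the cell surface, had 1.87 TPM.

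Of the detected pathway genes with a mean of at least 5 CPM, the libraries differed most for a relative of gsk-3. The paralogues gskl-1 and gskl-2 act in sperm, and the table lists them under R03D7.5 and gska-3. In gskl-2 the values were 46.3, 2.83 and 27.7 CPM in replicates 1, 2 and 3, a factor of 16.4 between the highest and the lowest. The 10 sperm markers were likewise lowest in replicate 2, with the sums given above, and the part of sperm content in this difference was not tested. In gskl-1 the values were 1.38, 0.578 and 1.14 CPM, which missed the detection rule. The gene gsk-3 itself differed by a factor of 1.1, or 1.17 with TMM and 1.2 with DESeq2 scaling. After gskl-2, the largest factors among those pathway genes were 1.5 for mom-5, 1.49 for mig-14, 1.36 for vang-1 and 1.35 for dsh-1.

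The Frizzled gene mom-5 (WBGene00003397, chromosome I, 9965574 to 9970037), which receives the MOM-2 signal in the early embryo, had 7.37, 5.85 and 4.92 CPM in replicates 1, 2 and 3 and 2.59 ± 0.436 TPM on average (SD, n = 3). It was not the leading Wnt receptor gene by level. The Ror-type receptor gene cam-1 had 54.8 TPM and the Frizzled gene mig-1 4.58 TPM. The TPM values of mig-1 lay above those of mom-5 in each library. In CPM, which leaves length out, mig-1 had 6.95, 7.84 and 8.65 in replicates 1, 2 and 3, below mom-5 in replicate 1. Of the other receptor genes, lin-17 was detected at a mean of 1.18 CPM (0.572 TPM). The Ryk gene lin-18 and the Frizzled gene cfz-2 were not, at means of 0.97 and 0.0414 CPM. The first 2 of these lay close to the minimum of 1 CPM, and both had 1.24 CPM in replicate 1.

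Of the 5 ligand genes, mom-2 stood far above the rest. This gene encodes the maternal Wnt ligand that one blastomere of the early embryo sends to its neighbour. It had 472.9, 583.6 and 484.9 CPM in replicates 1, 2 and 3, and at 358.1 TPM it ranked 329 among the 20116 protein-coding genes. The ligand gene cwn-1 was detected at 2.51 ± 0.894 CPM (SD, n = 3), with replicate 3 the highest. The other 3, lin-44, cwn-2 and egl-20, were not detected, with means of 0.976, 0.172 and 0.083 CPM. The germline libraries therefore held 1 abundant ligand transcript, whereas the transcript of the Frizzled gene mom-5 was low.

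Genes for ligand secretion and for the first steps after the receptor were widely detected. Of 10 secretion genes, 9 were detected, or 90% beside 40.2% of all protein-coding genes. They ranged from the porcupine gene mom-1 at 4.03 TPM to the retromer gene vps-29 at 81.9 TPM. The Wntless gene mig-14, which carries Wnt to the cell surface, had 30.7, 38.8 and 45.8 CPM in replicates 1, 2 and 3. The retromer genes vps-35 and vps-26 had 38.3 and 33 TPM, the myotubularin genes mtm-3, mtm-9 and mtm-6 had 31, 25.5 and 25.5 TPM, and the clathrin adaptor gene dpy-23 had 7.82 TPM. The exception was the sorting nexin gene snx-3, with 0.275, 1.41 and 1.08 CPM. All 3 Dishevelled genes were detected, with mig-5 at 60.3 TPM, dsh-2 at 45.8 TPM and dsh-1 at 2.82 TPM. Of 4 genes of secreted inhibition and planar polarity, 25% were detected, below the 40.2% of all protein-coding genes. Here vang-1 was detected at 5.61 TPM, and sfrp-1, prkl-1 and fmi-1 were not, with prkl-1 the highest of them at 0.457 CPM.

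At the junctions, hmp-2 was above its partners in TPM. The alpha-catenin gene hmp-1 had 20.4 TPM, the cadherin gene hmr-1 17.7 TPM and the p120 catenin gene jac-1 3.73 TPM. The level of hmp-2 exceeded that of hmp-1 by a factor of 3.73, 4.03 and 3.17 in replicates 1, 2 and 3, and that of hmr-1 by a factor of 4.13, 4.27 and 4.09. Per coding length the mean factors were 2.55 over hmp-1 and 4.05 over hmr-1, in place of 3.62 and 4.16. In CPM, which leaves length out, hmr-1 was above hmp-2, at means of 165.3 and 156.1. The genes mes-1 and src-1, which act beside Wnt signalling in the early embryo, had 6.48 and 2.01 TPM.

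**Figure D3:**
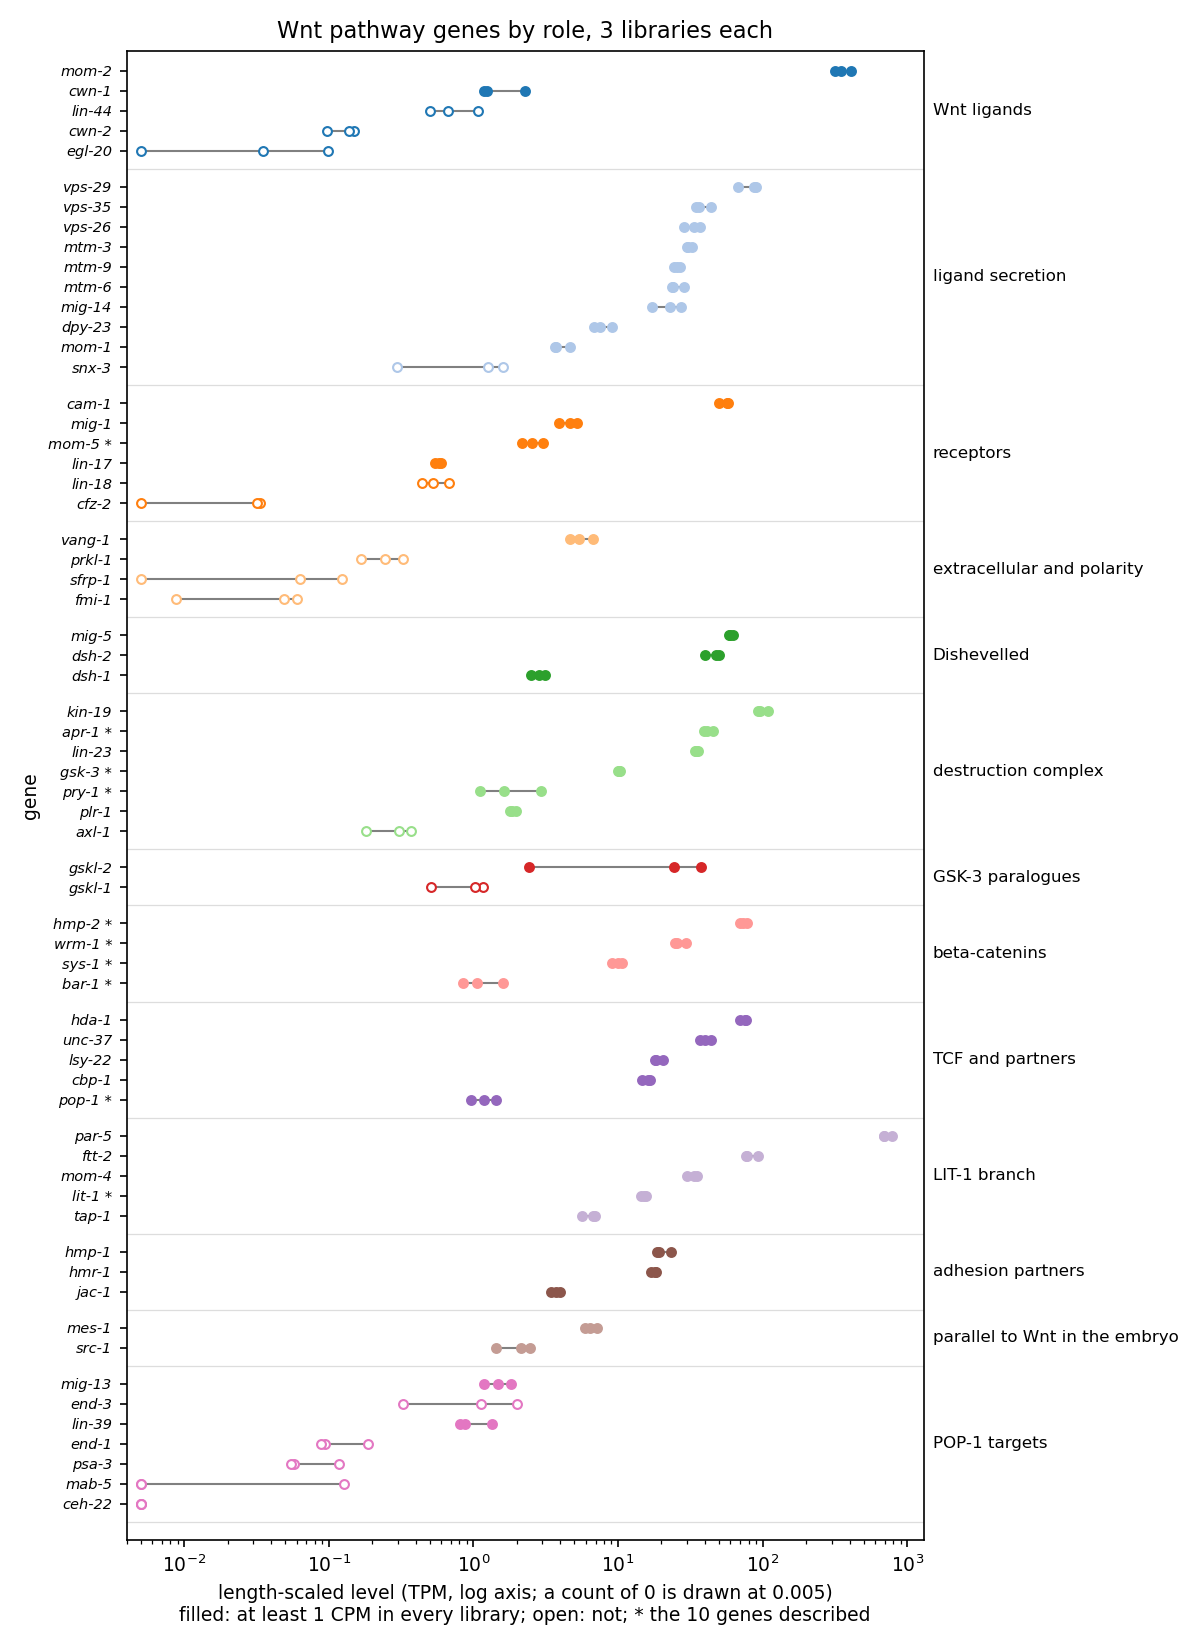
Length-scaled level (TPM, log axis) of 63 Wnt pathway genes by role, with a point for each library and a line over their range; filled points mark genes with at least 1 CPM in every library, and a count of 0 is drawn at 0.005. The ligand gene mom-2, at 358.1 TPM on average, stands above the other ligands, and pop-1 is the lowest of its row group at 1.2 TPM.

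Over the whole pathway list, 47 of 63 genes were detected, and without the 10 members 37 of 53, beside 40.2% of all protein-coding genes. The list median was 3.94 on the log2(CPM + 1) scale. Lists of 3 other signalling pathways gave 12 of 13 genes for Notch (median 4.93), 13 of 15 for RAS and ERK (4.23) and 11 of 17 for TGF-beta (1.33). No test of these differences was made.

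The spread between libraries was small for the more abundant members. The ratio of the highest to the lowest library lay between 1.01 and 1.22 for hmp-2, apr-1, wrm-1, lit-1, gsk-3 and sys-1, beside a median of 1.23 for all detected protein-coding genes of over 15 CPM on average. For the members of low level it was 2.45 for pry-1, 1.95 for bar-1, 1.61 for pop-1 and 1.5 for mom-5, beside a median of 1.65 and a 90th percentile of 3.92 for the 1627 detected genes with a mean of 2 to 8 CPM. The coefficient of variation of the CPM between libraries was 46.5% for pry-1, 33.3% for bar-1 and 20.4% for mom-5, beside 13.5%, 15.1% and 10.4% from counting alone. For sys-1, wrm-1, apr-1 and hmp-2 it was 9.91%, 6.37%, 4.02% and 3.97%, beside 4.9%, 3.04%, 2.05% and 2.03%. On library totals it lay below the counting value for gsk-3 (4.82% beside 5.59%) and lit-1 (0.469% beside 3.65%). This may depend on that scaling. With TMM and DESeq2 scaling the ratio of the highest to the lowest library was 1.17 and 1.2 for gsk-3, in place of 1.1. For lit-1 it was 1.1 and 1.08, in place of 1.01. The value of pry-1 rested on replicate 3, without which the ratio was 1.38. There the 95% exact Poisson interval of pry-1 (4.18 to 6.44 CPM) lay above those of replicates 1 and 2 (1.45 to 3.03 and 2.16 to 3.94 CPM).

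The members of low level did not share 1 pattern. Replicate 3 was the highest for pry-1 and the lowest for mom-5, pop-1 and bar-1. Replicate 1 was the highest for mom-5 and pop-1, and replicate 2 for bar-1. Replicate 3 also had the lowest sum of the somatic gonad markers, and replicate 2 the highest sums of the somatic gonad and intestine markers. Of the somatic gonad sum, inx-8 took 230.5, 294.6 and 172.4 CPM in replicates 1, 2 and 3. Like inx-8, inx-9 and plc-3 were highest in replicate 2. The genes itr-1, sth-1, mup-2 and ceh-18 were highest in replicate 1, and lim-7 and lag-2 in replicate 3. In lim-7, lag-2 and ceh-18 replicate 2 was the lowest. Of the intestine sum in replicate 2, the yolk genes vit-2, vit-5 and vit-6 took 483.6, 590.4 and 516.8 CPM. The intestine list's median was lowest in that library (3.20, 2.80 and 3.36 on the log2(CPM + 1) scale in replicates 1, 2 and 3). The genes elt-2, ifb-2, act-5 and cpr-1 were also lowest there, whereas asp-1, elt-7 and ges-1 were lowest in replicate 3. Of these, elt-2 had at most 3 reads a library, and cpr-1 had 5.3 and 5.27 CPM in replicates 1 and 2. The gene ges-1 had 6, 5 and 5 reads in replicates 1, 2 and 3. The hypodermis markers summed to 690.9, 55.9 and 163.8 CPM, and their most abundant collagen genes col-140, col-119 and col-19 were highest in replicate 1, at 423.7, 159.3 and 102.7 CPM. Of the collagen genes of lower level, col-12 was also highest in replicate 1, at 4.54 CPM, while dpy-13 and sqt-3 were highest in replicate 3, at 9.07 and 4.74 CPM. The part of other cell types in the values of pry-1, bar-1, pop-1 and mom-5 was not tested.

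**Figure D4:**
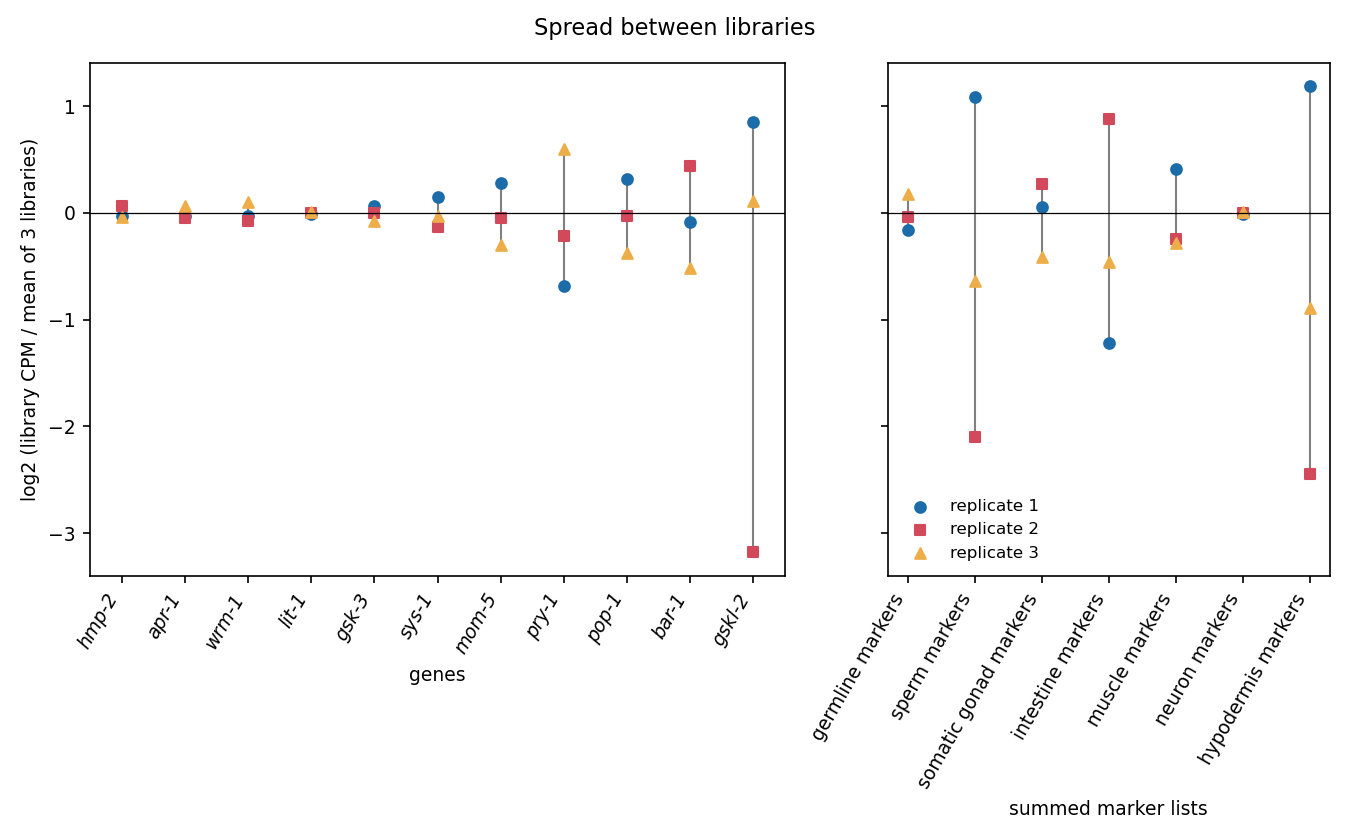
Library CPM over the mean of the 3 libraries, on the log2 scale, for the 10 genes and gskl-2 (left) and for the summed CPM of 7 marker lists (right), with a point for each library. The points of hmp-2, apr-1, wrm-1 and lit-1 lie close to 0, and gskl-2 and the sperm markers are lowest in replicate 2.

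By position, 7 members lie on chromosome I, 2 on chromosome III and bar-1 on the X chromosome. Chromosome I holds 14.2% of the protein-coding genes with a position and 20.3% of the detected ones, and the X chromosome 13.6% and 11%. The receptor gene mom-5 and the beta-catenin gene sys-1 are close neighbours on opposite strands, 10025 bases apart with 2 protein-coding genes between them. Exons of pry-1 share 180 bases, or 9.12% of its exon length, with the gene C37A5.11 on the opposite strand, which had 0, 2 and 2 counts in replicates 1, 2 and 3. No source used here gives the strand setting of the counting, so reads from shared bases cannot be assigned. For the other members such sharing with other genes came to at most 3.91% of the exon length, in pop-1.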

How the data were processed

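RNA of 3 samples of dissected N2 germline was sequenced after SMART-Seq amplification, per the labels' protocols. The authors deposited gene-level read counts without normalization, made with STAR and featureCounts on WBcel235, per the submitters' processing notes; no source used here gives versions, annotation release or strand setting. No other per-sample columns were present. CPM used each library's total. TPM used the union of exons from the Ensembl release 115 annotation of WBcel235, found for 20116 protein-coding genes and not for 246. The members and lists were chosen with earlier results of these data known. Of 64 listed pathway genes 63 were matched, 3 of them by the reference's symbol; imb-4 and the somatic gonad marker tnn-1 were not. Every member is named, as are pathway genes by role. Polymerase chain reaction reads carry no molecular identifiers, so intervals cover counting error only. Alternatives were other CPM and count minima, edgeR 4.0.16 TMM, DESeq2 1.42.0 size factors, the protein-coding total, other lengths and pseudocounts (main 1), and leaving out each library. The code (Python 3.11.15, R 4.3.3) was checked on simulated counts.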

Additional observations from a re-analysis of the deposited data

How the results depend on the processing

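All 10 members were detected with TMM and with DESeq2 scaling, and 6 at minima of 5 and 10 CPM. The lowest member value was 1.98 CPM, for bar-1 in replicate 3. There the TMM and DESeq2 totals were 17580991 and 17587815, in place of 16656171. A change of that size could not bring bar-1 below 1 CPM. The minimum of 0.5 CPM, a count of at least 10, the smaller protein-coding total and leaving out a library could not end a detection, by their construction. The number of pathway genes detected lay between 32 (10 CPM) and 50 (0.5 CPM), against 47. Scaling to protein-coding counts moved the median of the members' mean levels to 25.7 CPM, from 23.8 CPM. Of the 45 pairs of members, the 40 that did not overlap kept this and their direction per longest transcript, per coding length and with TMM and DESeq2 scaling, and leaving out a library could not make them overlap; coding length separated 2 more (gsk-3 over sys-1, pop-1 over bar-1). The medians above all protein-coding genes were 3.96 (members) and 3.29 (pathway list) on the log2 scale. Set against detected genes only, a background of higher level by its construction, they were -0.39 and -1.06. With pseudocounts of 0.5 and 0.1 they were 4.5 and 5.25 for members, and 3.81 and 4.55 for the list. Leaving out a library gave 2.97 to 3.26 for the list, whose own median was then 3.59 to 3.96. No paired analysis was possible because the study has 1 group. Depth limits mom-5, pry-1, pop-1 and bar-1, which had 31 to 107 reads a library. For each the coefficient of variation between libraries was above that from counting alone. For mom-5 the 95% exact Poisson intervals of the highest and lowest library still overlapped (6.04 to 8.9 and 3.92 to 6.11 CPM). Those of pop-1 overlapped too, and spread beyond counting was not tested.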

Other observations

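Protein-coding genes with the values most like those of a member were listed by the Euclidean distance of log2(CPM + 1) over the 3 libraries, a measure that rests on level as much as on the libraries and says nothing of shared function. Nearest to hmp-2 were mrg-1, a chromodomain gene needed in germ cells (151, 163 and 147 CPM in replicates 1, 2 and 3), and paqr-1. For wrm-1 they were T24H10.1 (distance 0.006; 68, 65.9 and 74.2 CPM) and rde-12, a helicase gene of small RNA pathways. For sys-1 they were scpl-1 and the mitochondrial ribosomal protein gene mrpl-47, and for bar-1 nrf-6 and calm-1. For pop-1 they were lin-38 and the histone gene his-4, for lit-1 ipla-6 and Y97E10AR.6, and for apr-1 Y71F9AL.9 and the corepressor gene sin-3. For gsk-3 they were bath-38 and die-1, for mom-5 ZK1058.9 and svh-2, and for pry-1, at the largest distances of 0.156 and 0.163, Y56A3A.30 and the insulin-like gene ins-5.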
